A study of Mus musculus with 16 samples.

Results

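Oxidative phosphorylation genes were taken from the arrays by symbol alone. They are the genes whose symbol starts with Nduf, Uqcr, Cox4 to Cox8 or Atp5, together with Sdha, Sdhb, Sdhc, Sdhd and Cycs. The rule found 81 genes among 16475 measured genes, of which 15780 carry 1 symbol. Complex I holds 32 of them, of which 5 are core subunits and 27 are supernumerary subunits, and another 8 are assembly factors of complex I. Complex II holds 4, complex III holds 6, complex IV holds 18, complex V holds 12, and Cycs encodes cytochrome c. The subunits that mitochondrial DNA encodes were not analysed here.

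Oxidative phosphorylation makes ATP in the inner mitochondrial membrane. Complexes I and II pass electrons from NADH and succinate to coenzyme Q, complex III passes them on to cytochrome c, and complex IV, the cytochrome c oxidase, hands them to oxygen, while complexes I, III and IV pump protons that drive the ATP synthase, complex V. Resting T cells and regulatory T cells are known to rely on this route, and activated conventional T cells raise glycolysis while also enlarging their mitochondria.

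The cells were CD4+ T cells from lymph nodes and spleens of young female C57BL/6 mice that carry a GFP reporter knocked into the Foxp3 gene, and every group shares this allele. GFP sorting at a purity over 97% gave TFoxp3+ cells, which express the regulatory T cell factor Foxp3, and TFoxp3− cells. The 4 activated groups were TFoxp3+ and TFoxp3− cells given plate-bound anti-CD3 and anti-CD28 at 5 µg/ml and human IL-2 at 100 U/ml for 36 h, and the 4 ex vivo groups were the same subsets without culture. Each subset and state gave polysome-associated mRNA, meaning mRNA with at least 3 ribosomes, and cytosolic mRNA, and each of the 8 groups had 2 arrays. Ex vivo cells were kept in cycloheximide at 100 µg/ml throughout isolation, while activated cells received it at the end of culture. This handling difference coincides with state. RNA of 2 experiments was pooled for each ex vivo array. With 2 arrays per group, p-values rest on the spread between duplicates, shared over all groups. Duplicates differed in a median gene by 0.17 to 0.23 in the ex vivo groups and by 0.34 to 0.47 in the activated groups. The shared spread is thus wider than that of the ex vivo groups and narrower than that of the activated groups. In sorted populations a lower signal from fewer expressing cells and one from less mRNA per cell cannot be told apart.

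Values are log2 intensities, and a difference of 1 on this scale is a doubling. Array medians lay between 4.84 and 5.06. Of 8 regulatory T cell markers, 7 in both ex vivo fractions, 8 in activated cytosolic mRNA and 7 in activated polysome-associated mRNA were higher in TFoxp3+ cells, Foxp3 among them in each. Of the other cell type lists, Cd8a, Cd79b, Lyz2, Pecam1, Col1a1 and Col3a1 were each called higher in activated TFoxp3+ cells in 1 fraction, and none of the CD8 T cell, B cell, myeloid, erythroid or stromal markers was called between the ex vivo subsets. The mean level of the 5 stromal markers lay between 4.26 and 5.12 on the activated TFoxp3+ arrays and between 3.91 and 4.27 on the activated TFoxp3− arrays, that of the 5 myeloid markers between 4.18 and 4.73 and between 3.63 and 4.23, that of the 3 B cell markers between 4.41 and 5.21 and between 3.55 and 4.52, and that of the 2 CD8 T cell markers between 4.55 and 5.04 and between 3.95 and 4.75, and that of the 2 erythroid markers between 3.77 and 5.11 and between 3.62 and 4.25, and their part in the subset differences was not tested. The arrays came in 3 file series, 1 for all ex vivo samples and 1 for each activated subset, so activation and the activated subset comparison cannot be told apart from the array series, while the ex vivo subset and all fraction comparisons lie within 1 series. The actin control probe sets, a measure of RNA integrity, differed between their 3′ and 5′ ends by 4.31 (polysome-associated) and 4.40 (cytosolic) in ex vivo TFoxp3+ samples and by 0.83 and 1.12 in ex vivo TFoxp3− samples, and the difference lay between −0.52 and −0.28 in the 4 activated groups. The Gapdh control probe sets differed by 3.61 and 4.04 in ex vivo TFoxp3+ samples, by 3.14 and 2.49 in ex vivo TFoxp3− samples, and by 1.10 to 1.24 in the activated groups.

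Several respiratory chain promoters hold a site for NRF1, a transcription factor that is known to drive nuclear genes of oxidative phosphorylation. Promoters of RefSeq on GRCm38.p6, from 250 bases before to 50 bases after the start, were at hand for 66 of the 81 genes. The NRF1 core GCGCNTGCG, searched on both strands, was found in 19 of the 66 (28.8%) and in 6.59% of 27025 promoters. The YY1 core AAGATGGCG was in 7 of the 66 (10.6%) and 1.49% of all promoters, and the GABP core CCGGAAGT was in 2 of the 66 (3.03%), Cox8a and Uqcrh, and 4% of all. Shown are the 100 bases before and the first 10 bases of 4 genes on which the results below turn, all on the minus strand and read 5′ to 3′, with NRF1 cores in capitals for Sdhd and Ndufa8 and the GABP core in capitals for Cox8a. Sdhd lies at chr9:50603840-50603949 and its core starts 78 bases before the start, Ndufa8 at chr2:36049329-36049438 with a first core at 30 bases before it, Cox8a at chr19:7217607-7217716, and Ndufa1, which holds none of the 3 cores, at chrX:37191229-37191338.
Sdhd: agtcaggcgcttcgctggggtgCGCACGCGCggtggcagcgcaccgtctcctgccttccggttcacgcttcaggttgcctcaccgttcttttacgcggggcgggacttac
Ndufa8: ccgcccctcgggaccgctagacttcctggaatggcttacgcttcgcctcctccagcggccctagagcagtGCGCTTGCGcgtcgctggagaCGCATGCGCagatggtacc
Cox8a: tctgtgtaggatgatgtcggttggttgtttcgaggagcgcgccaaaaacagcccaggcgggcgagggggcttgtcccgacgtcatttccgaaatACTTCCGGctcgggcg
Ndufa1: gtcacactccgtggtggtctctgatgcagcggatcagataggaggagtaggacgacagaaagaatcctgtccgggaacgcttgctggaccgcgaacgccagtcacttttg
A match of these letters is a description of the window only. Sdhd, Cox8a and Ndufa1 were called in all 4 comparisons of activated with ex vivo cells, and Sdhd and Ndufa8 differed between the activated subsets.

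Most of these genes gave a strong signal. On all 16 arrays 68 of the 81 lay above the array median, and 4 did so on none. Each gene's intensity also depends on its probes, so the order of intensities is not an order of mRNA amounts. Mean intensities ran in complex I from 6.94 for Ndufs1, which encodes a core subunit, to 13.09 for Ndufa13, a supernumerary subunit, and in complex I assembly from 5.02 for Ndufaf4 to 10.49 for Ndufaf8. They ran in complex II from 8.74 for Sdhc to 10.98 for Sdhb, in complex III from 9.30 for Uqcrfs1, the Rieske iron-sulfur protein, to 11.57 for Uqcrh, the hinge protein. They ran in complex IV from 2.63 for Cox7b2 to 12.98 for Cox6a1 and in complex V from 3.10 for Atp5g1 to 12.76 for Atp5g3, both of which encode subunit c of the ATP synthase ring. The assembly factors were thus the group of complex I genes nearest to the array median. Cycs, the gene of the electron carrier cytochrome c, read between 2.77 and 3.87, below the array median on every array, and no difference of Cycs between groups was detectable.

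**Figure D1:**
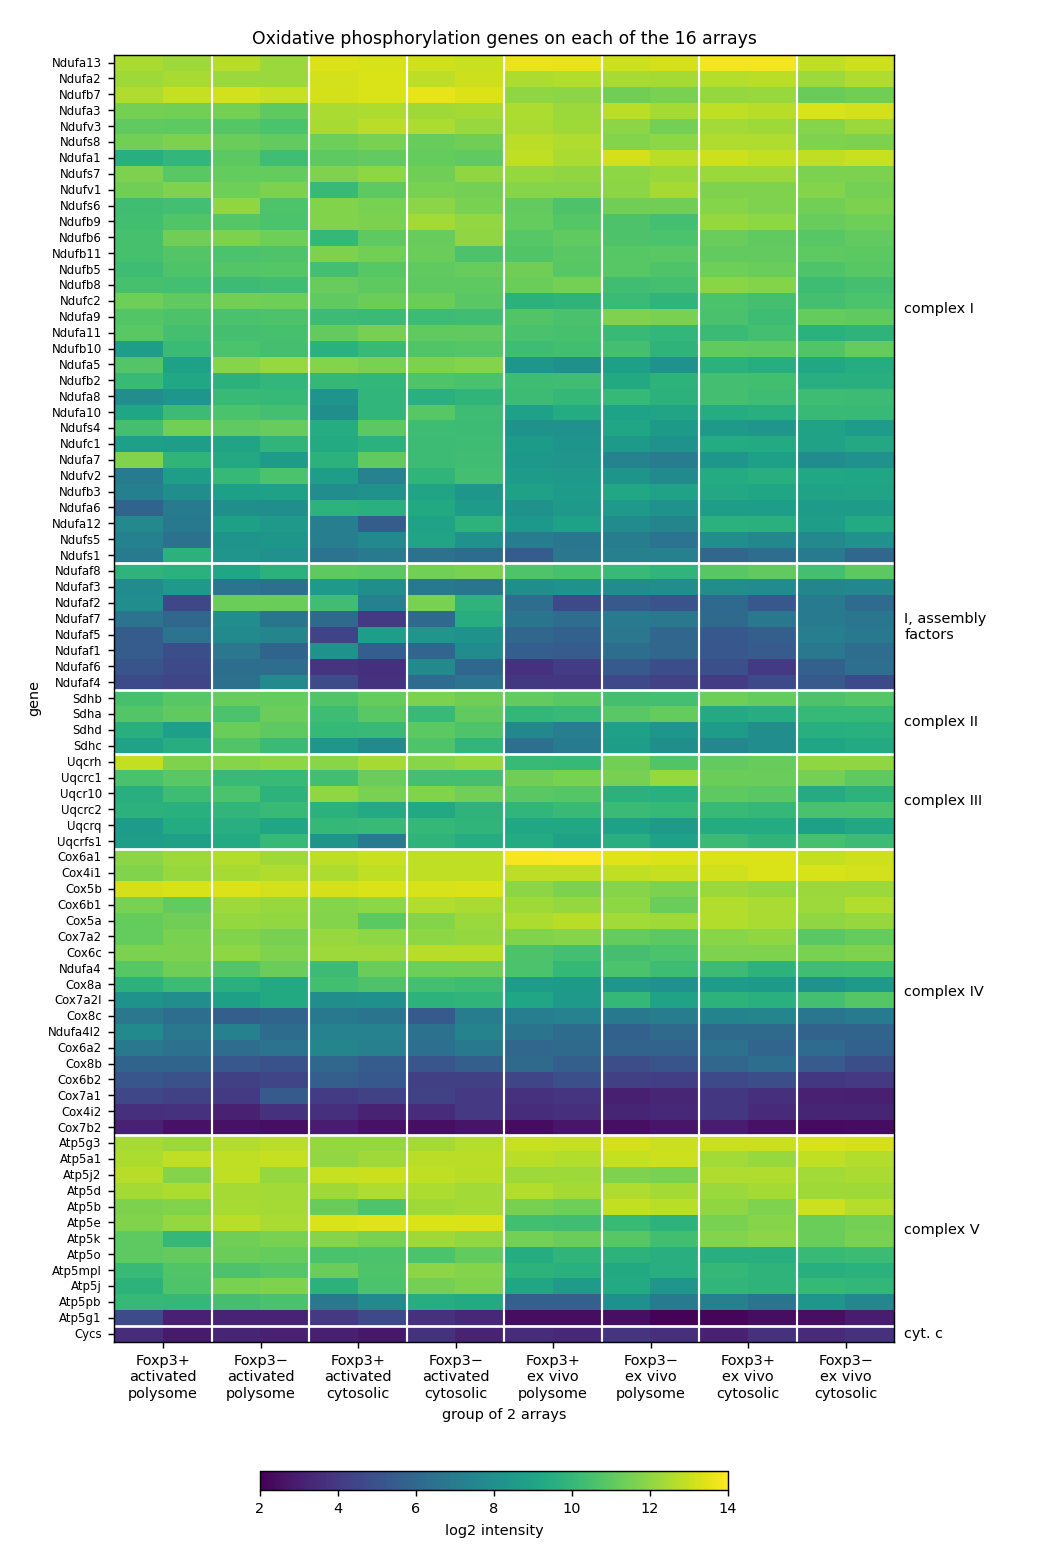
Log2 intensity of the 81 oxidative phosphorylation genes (rows, grouped by respiratory complex) on each of the 16 arrays (columns, 2 per group), coloured from 2 to 14. Most rows are bright in every column, while Cycs, Atp5g1, Cox7b2 and Cox4i2 stay below the array median on all 16 arrays.

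Several subunits exist as isoforms, of which one is general and others are known from muscle, testis or lung. The general forms Cox4i1, Cox6a1, Cox6b1, Cox7a2 and Cox8a of complex IV lay above the array median on all 16 arrays. Cox4i2, known as the lung form, and Cox7b2 lay above it on none, Cox7a1, the muscle form, on 1 array and Cox6b2, the testis form, on 4. Cox6a2, Cox8c and Ndufa4l2 lay above the median on all 16 and Cox8b on 15, between 4.84 and 7.68. Of the supernumerary factors grouped with complex IV, Ndufa4 ranged from 9.76 to 11.39 with no call in any comparison, and Cox7a2l, the supercomplex factor, from 7.90 to 10.82. Duplicate arrays differed in a median oxidative phosphorylation gene by 0.42 and 0.32 in activated TFoxp3+ cells (polysome-associated and cytosolic mRNA), by 0.20 and 0.22 in activated TFoxp3− cells, and by 0.15 to 0.25 in the 4 ex vivo groups.

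Activation changed oxidative phosphorylation genes in both directions, and 63 of the 81 were called in at least 1 of the 4 comparisons of activated with ex vivo cells (limma, adjusted p under 0.05). In TFoxp3+ cells 20 rose and 12 fell in cytosolic mRNA, against 16.9% of all genes higher and 14.4% lower, and 17 rose and 17 fell in polysome-associated mRNA, against 14.7% and 14.6%. In TFoxp3− cells 26 rose and 6 fell in cytosolic mRNA, against 13.6% and 12.5%, and 23 rose and 11 fell in polysome-associated mRNA, against 14.1% and 16.4%. The shares of oxidative phosphorylation genes that rose were 24.7% and 21.0% in TFoxp3+ cells and 32.1% and 28.4% in TFoxp3− cells (cytosolic and polysome-associated mRNA). Their median differences were −0.03 and −0.02 in TFoxp3+ cells, where the medians over all genes were 0.13 and 0.09, and 0.54 and 0.47 in TFoxp3− cells, where they were 0.11 and 0.02. After cyclic loess between arrays 30 rose and 5 fell in TFoxp3+ cytosolic mRNA, 19 and 9 in TFoxp3+ polysome-associated mRNA, 28 and 2 in TFoxp3− cytosolic mRNA and 34 and 4 in TFoxp3− polysome-associated mRNA, and the TFoxp3+ medians turned to 0.43 and 0.21, while centring each array on its median gave 14 and 17 in TFoxp3+ cytosolic mRNA. Among the 74 oxidative phosphorylation genes above the median mean intensity of all genes, 21.6% rose in both fractions of TFoxp3+ cells, against 15.6% and 16.9% of all such genes, and 28.4% rose in both fractions of TFoxp3− cells, against 17.1% and 20.2%. The control probe sets and the array series moved with activation as well, and their part in these differences was not tested.

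Atp5e, the epsilon subunit of the ATP synthase stalk, rose in every comparison. In polysome-associated mRNA Atp5e read 11.74 and 12.12 in activated TFoxp3+ cells, against 10.35 and 10.30 ex vivo, and 12.75 and 12.49 in activated TFoxp3− cells, against 10.14 and 9.78 ex vivo. The activated arrays lay above the ex vivo arrays in both subsets, with no overlap. The differences were 1.61 ± 0.21 (SE, adjusted p = 0.000362) in TFoxp3+ cells and 2.66 ± 0.21 (adjusted p = 9.33e-06) in TFoxp3− cells, with 1.70 and 1.95 in cytosolic mRNA.

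Cox5b and Cox8a, nuclear subunits of the cytochrome c oxidase, rose in both fractions of both subsets too. Cox5b in cytosolic mRNA read 13.22 and 13.32 in activated TFoxp3+ cells, against 12.18 and 12.10 ex vivo, and 13.27 and 13.34 in activated TFoxp3− cells, against 12.21 and 12.21 ex vivo. Cox8a in cytosolic mRNA read 10.39 and 10.63 in activated TFoxp3+ cells, against 8.58 and 8.52 ex vivo, and 10.43 and 10.27 in activated TFoxp3− cells, against 8.10 and 8.43 ex vivo. For both genes the activated arrays stood close together whatever the subset, and above all ex vivo arrays. The cytosolic differences were 1.13 (adjusted p = 0.00119) and 1.09 (adjusted p = 0.00153) for Cox5b and 1.96 (adjusted p = 0.000163) and 2.08 (adjusted p = 0.000109) for Cox8a in TFoxp3+ and TFoxp3− cells. In polysome-associated mRNA they were 1.44 and 1.54 for Cox5b and 1.40 and 1.29 for Cox8a.

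Ndufa1, a supernumerary subunit that complex I assembly needs, was the 1 gene that fell in all 4 comparisons. In polysome-associated mRNA Ndufa1 read 9.54 and 9.97 in activated TFoxp3+ cells, against 12.87 and 12.48 ex vivo, and 10.96 and 10.34 in activated TFoxp3− cells, against 13.23 and 12.77 ex vivo. The 4 ex vivo arrays were all above the 4 activated ones. Ndufa1 fell by 2.92 ± 0.27 (SE, adjusted p = 4e-05) in TFoxp3+ cells, which is 7.57-fold, and by 2.35 ± 0.27 (adjusted p = 8.11e-05) in TFoxp3− cells, and in cytosolic mRNA by 1.90 and 1.80. Atp5e, Cox5b, Cox8a and Ndufa1 kept their call in all 4 comparisons when any array was left out and under each of 5 other ways to process or fit the values.

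**Figure D2:**
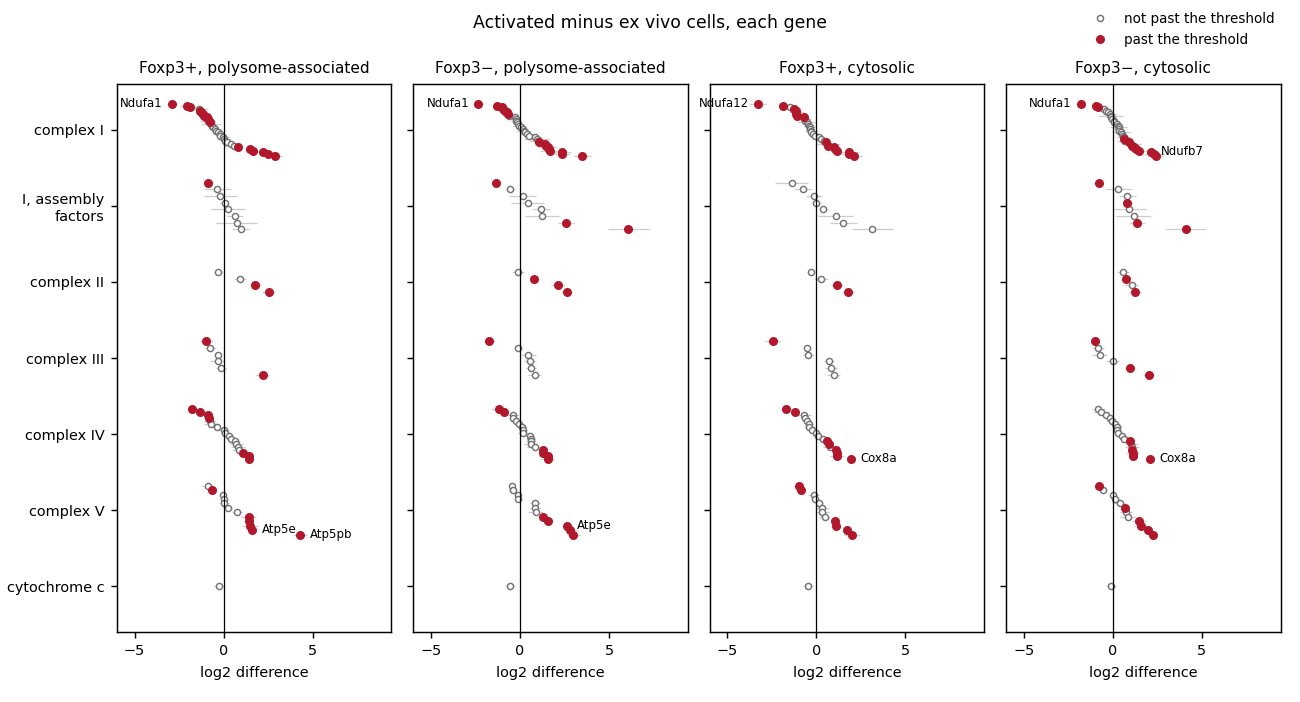
Activated minus ex vivo log2 difference of each oxidative phosphorylation gene (points, with the standard error of the fitted difference as bars) by respiratory complex, in 4 panels for subset and RNA fraction. Filled red points passed an adjusted p of 0.05; Ndufa1 lies at −2.92 in TFoxp3+ polysome-associated mRNA, and Atp5pb lies at 4.31 there.

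In all, 10 genes rose in every activation comparison, namely Atp5e, Cox5b, Cox8a, Sdhd, Ndufb7 and Ndufa5 and, outside the naming rule and named for belonging to this count, Atp5o, Cox6c, Ndufa7 and Ndufs4. Besides Atp5e, Cox5b and Cox8a, each of them lost at least 1 of its 4 calls when 1 array of the groups compared was left out (adjusted p = 0.0508 to 0.243). Sdhd anchors succinate dehydrogenase, which is complex II, in the membrane. In polysome-associated mRNA Sdhd read 9.54 and 8.80 in activated TFoxp3+ cells, against 7.62 and 7.15 ex vivo, and 11.33 and 11.04 in activated TFoxp3− cells, against 8.85 and 8.29 ex vivo. Activated arrays were higher within each subset, while the activated TFoxp3+ arrays overlapped the ex vivo TFoxp3− arrays. The difference was 1.78 ± 0.32 (SE, adjusted p = 0.00228, and 0.0506 with only the 4 arrays compared) in TFoxp3+ cells and 2.61 ± 0.32 (adjusted p = 0.000145) in TFoxp3− cells. In cytosolic mRNA Sdhd rose by 1.77 (adjusted p = 0.00227) in TFoxp3+ cells and by 1.26 (adjusted p = 0.0157) in TFoxp3− cells, a call that ended without array 3, 7 or 9 (adjusted p = 0.0883, 0.0709 and 0.0748).

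Sdhc, the other membrane anchor of complex II, rose in polysome-associated mRNA. Its arrays read 8.92 and 9.49 in activated TFoxp3+ cells, against 6.45 and 6.92 ex vivo, and 10.75 and 10.16 in activated TFoxp3− cells, against 8.69 and 8.0 ex vivo. The activated arrays were higher in each subset. The differences were 2.52 ± 0.37 (SE, adjusted p = 0.000714) in TFoxp3+ cells and 2.11 ± 0.37 (adjusted p = 0.00148) in TFoxp3− cells, and no cytosolic change of Sdhc was called. Of complex II as a whole, 2 of 4 genes rose in each of the 3 other comparisons and 3 of 4 in TFoxp3− polysome-associated mRNA, and none was called lower.

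In complex V, Atp5pb, the b subunit of the peripheral stalk that holds the ATP synthase together, had the largest rise among these genes in TFoxp3+ polysome-associated mRNA. Atp5pb read 10.06 and 9.97 there after activation, against 5.72 and 5.69 ex vivo. In TFoxp3− polysome-associated mRNA it read 10.45 and 10.54 after activation, against 8.02 and 6.97 ex vivo. The activated arrays were alike in both subsets, and the ex vivo TFoxp3+ arrays were the lowest. The differences were 4.31 ± 0.39 (SE, adjusted p = 3.78e-05), which is 19.8-fold, and 3.0 ± 0.39 (adjusted p = 0.000198). Cytosolic Atp5pb read 6.81 and 7.68 in activated TFoxp3+ cells, against 7.23 and 6.61 ex vivo, where the arrays overlapped. Atp5g3, which encodes the subunit c of the proton-driven ring, had cytosolic differences of −0.96 (adjusted p = 0.00332, and 0.129 after cyclic loess) in TFoxp3+ cells, and −0.75 in TFoxp3− cells, which ended without array 3, 7 or 9 (adjusted p = 0.0679 to 0.0875).

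Complex I held calls both ways. Ndufb7, a supernumerary subunit, rose by 2.17 ± 0.20 (SE, adjusted p = 3.61e-05) in TFoxp3− cytosolic mRNA, from arrays that read 13.58 and 13.36 in activated cells, against 11.22 and 11.39 ex vivo. Ndufs8, a core subunit that carries iron-sulfur clusters, fell by 1.13 (adjusted p = 0.00149) in TFoxp3+ cytosolic mRNA, where it read 11.34 and 11.59 in activated cells, against 12.59 and 12.59 ex vivo. Neither pair of groups overlapped. Ndufa12, known to join late in assembly, fell in TFoxp3+ cytosolic mRNA to 7.13 and 5.53 in activated cells, against 9.65 and 9.61 ex vivo. That is a difference of −3.30 ± 0.49 (SE, adjusted p = 0.000758), with duplicates that differed more in the activated cells than in the ex vivo cells. Of the 32 complex I subunits, 8 rose and 7 fell in TFoxp3+ cytosolic mRNA, 6 rose and 10 fell in TFoxp3+ polysome-associated mRNA, 9 rose and 3 fell in TFoxp3− cytosolic mRNA, and 9 rose and 7 fell in TFoxp3− polysome-associated mRNA.

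In complexes III and IV calls also ran both ways. Uqcrc1, a core protein of complex III, fell by 1.72 (adjusted p = 0.00153) in TFoxp3− polysome-associated mRNA, and Uqcrh rose by 2.20 (adjusted p = 0.00139, and 0.053 with only the 4 arrays compared) in TFoxp3+ polysome-associated mRNA. Uqcrfs1, the Rieske protein, fell by 2.46 (adjusted p = 0.00149) in TFoxp3+ cytosolic mRNA. Cox6a1, the general form of subunit 6a, fell in polysome-associated mRNA of TFoxp3+ cells, where it read 11.89 and 12.25 in activated cells, against 13.82 and 13.87 ex vivo. The Cox6a1 difference was −1.77 (adjusted p = 0.000126) in TFoxp3+ cells and −0.92 (adjusted p = 0.00483, and 0.0548 after cyclic loess) in TFoxp3− cells. Uqcr10, a small complex III subunit, was called higher in TFoxp3− cytosolic mRNA, at 2.01 (adjusted p = 0.00116), and lower in TFoxp3+ polysome-associated mRNA, at −0.99 (adjusted p = 0.04), a call that ended without any 1 of 9 arrays (adjusted p = 0.0531 to 0.237).

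Activated TFoxp3+ cells had lower signals than activated TFoxp3− cells for many of these genes. In cytosolic mRNA 25 of 81 were lower and 4 higher (limma, adjusted p under 0.15), against 12.2% of all genes lower and 13.8% higher, and in polysome-associated mRNA 25 were lower and 5 higher, against 13.7% and 18.7%. The cytosolic median difference was −0.10 and the polysome-associated one −0.26, where the medians over all genes were 0.13 and 0.20. Among genes above the median mean intensity 23.0% of 74 oxidative phosphorylation genes and 22.2% of all genes were lower in cytosolic mRNA, a share near the background. In polysome-associated mRNA the same shares were 31.1% and 21.8%. After cyclic loess 14 were higher and 10 lower in cytosolic mRNA and the cytosolic median turned to 0.16, while 5 were higher and 20 lower in polysome-associated mRNA. When only the 4 arrays compared were fitted, 4 genes were called in each fraction. Shares of all genes called after cyclic loess or in the fit of 4 arrays are not given here. The interquartile range of all values was also narrower on the activated TFoxp3+ arrays, 2.62 to 2.90, than on the activated TFoxp3− arrays, 3.03 to 3.43, and its part in the result was not tested.

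Of the 29 cytosolic calls between the activated subsets 11 held when each array was left out in turn, and of the 30 polysome-associated calls 10 did. The membrane anchors of complex II were among these, Sdhc in cytosolic and Sdhd in polysome-associated mRNA. Cytosolic Sdhc read 8.28 and 7.69 in activated TFoxp3+ cells, against 10.67 and 9.90 in activated TFoxp3− cells. Polysome-associated Sdhd read 9.54 and 8.80 in activated TFoxp3+ cells, against 11.33 and 11.04 in activated TFoxp3− cells. Neither gene's arrays overlapped between the subsets. Cytosolic Sdhc differed by −2.30 ± 0.37 (SE, adjusted p = 0.00437) and polysome-associated Sdhd by −2.02 ± 0.32 (adjusted p = 0.00317), a 4.93-fold and a 4.04-fold lower signal, and both calls held with each array left out and under all 5 alternatives. Polysome-associated Sdhc differed by −1.25 (adjusted p = 0.0453), which ended without array 10 or 14 (adjusted p = 0.198 and 0.176), and cytosolic Sdhd by −0.76 (adjusted p = 0.148), which ended without any 1 of 12 arrays (adjusted p = 0.159 to 0.402). The catalytic subunit Sdha was not called, with cytosolic arrays at 10.28 and 10.91 in activated TFoxp3+ cells, against 10.15 and 11.07 in activated TFoxp3− cells. The iron-sulfur subunit Sdhb had a cytosolic difference of −0.55 (adjusted p = 0.132) that ended without any 1 of 10 arrays (adjusted p = 0.162 to 0.427).

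Of the 32 complex I subunits 9 were lower in cytosolic and 11 in polysome-associated mRNA, and of the 8 assembly factors 3 were lower in each. The shares were 12.2% and 13.7% over all genes, and 22.2% and 21.8% over genes above the median mean intensity. Ndufa8, a supernumerary subunit of the membrane arm, read 7.86 and 8.28 in activated TFoxp3+ polysome-associated mRNA, against 10.12 and 10.06 in TFoxp3−. The difference of −2.01 ± 0.41 (SE, adjusted p = 0.0104) held with each array left out and under all 5 alternatives. Cytosolic Ndufa12 read 7.13 and 5.53 in activated TFoxp3+ cells, against 8.93 and 9.78 in activated TFoxp3− cells, a difference of −3.02 ± 0.49 (adjusted p = 0.00437) that was not called when only the 4 arrays were fitted (adjusted p = 0.166). Polysome-associated Ndufv2, a core subunit near the NADH site, read 6.90 and 8.71 in activated TFoxp3+ cells, against 10.03 and 10.62 in activated TFoxp3− cells, a difference of −2.52 ± 0.55 (adjusted p = 0.0133, and 0.205 with only the 4 arrays). All 3 genes were lower on both TFoxp3+ arrays than on either TFoxp3− array, and the TFoxp3+ duplicates of Ndufa12 and Ndufv2 stood far apart.

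Among the assembly factors Ndufaf6 and Ndufaf4 were lower in activated TFoxp3+ cells and Ndufaf3 was higher. Cytosolic Ndufaf6, needed for an early step of complex I assembly, read 3.85 and 3.60 in activated TFoxp3+ cells, against 7.73 and 6.05 in activated TFoxp3− cells. Polysome-associated Ndufaf3 read 7.77 and 8.51 in activated TFoxp3+ cells, against 6.55 and 6.43 in activated TFoxp3− cells. The arrays of both genes were apart between the subsets, and the TFoxp3+ values of Ndufaf6 lay below the array median. The Ndufaf6 difference was −3.16 ± 0.49 (SE, adjusted p = 0.00353), and the polysome-associated Ndufaf4 difference was −2.47 ± 0.44 (adjusted p = 0.00537). Ndufaf6 was called under all 5 alternatives, and Ndufaf4 under the 4 that include it, since its mean was too low for the fit of genes above the median mean. Ndufaf3 differed by 1.65 ± 0.26 (adjusted p = 0.00265) in polysome-associated and 1.47 (adjusted p = 0.00578) in cytosolic mRNA, where fitting only the arrays compared gave adjusted p = 0.159 and 0.18. Ndufaf2, named after its values were seen, had the widest polysome-associated difference, −5.09 ± 1.14 (adjusted p = 0.0146, and 0.162 with only the 4 arrays), but its TFoxp3+ duplicates read 7.88 and 4.54, against 11.29 and 11.32 in TFoxp3− cells.

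Lower in activated TFoxp3+ cytosolic mRNA were also 1 of 6 genes of complex III, 4 of 18 of complex IV and 5 of 12 of complex V, and in polysome-associated mRNA 0, 4 and 4 of them. Of all genes 12.2% and 13.7% were lower, and of genes above the median mean intensity 22.2% and 21.8%. Complexes III and IV were not above the latter shares by more than a small margin. Atp5b, the catalytic beta subunit of the ATP synthase, read 11.22 and 10.72 in activated TFoxp3+ cytosolic mRNA, against 12.27 and 12.40 in TFoxp3−. The groups did not overlap. The difference was −1.37 ± 0.23 (SE, adjusted p = 0.0051), and adjusted p was 0.199 with only the 4 arrays. Cytosolic Uqcrfs1 differed by −2.04 (adjusted p = 0.012, and 0.207 with only the 4 arrays), and cytosolic Cox7a2l by −1.84 (adjusted p = 0.00772, and 0.182 with array weights). Cox6b2, the testis form of a cytochrome c oxidase subunit, was higher in activated TFoxp3+ cytosolic mRNA, with 5.65 and 5.31, against 4.29 and 4.25 in TFoxp3−, a difference of 1.21 ± 0.21 (adjusted p = 0.00583, and 0.215 with only the 4 arrays). These values straddle the array median. Higher polysome-associated signals of TFoxp3+ cells that ended with 1 array left out were those of Cox6b2 (0.72, adjusted p = 0.151 without array 10), Ndufa7 (1.88, adjusted p = 0.186 without array 12 and 0.223 without array 14), Cox8a (0.53, adjusted p = 0.163 to 0.466 without any 1 of 10 arrays) and Cox8b (0.74, adjusted p = 0.163 to 0.318 without any 1 of 4 arrays).

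**Figure D3:**
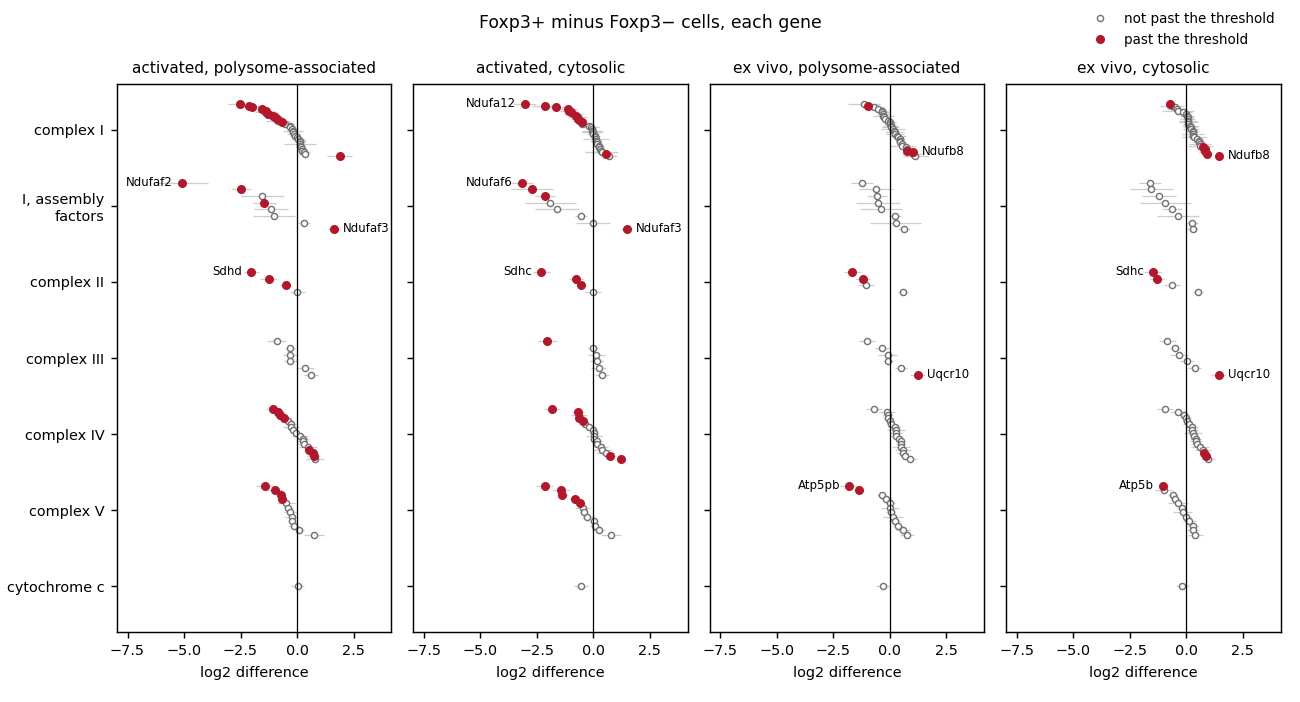
TFoxp3+ minus TFoxp3− log2 difference of each oxidative phosphorylation gene (points, with the standard error of the fitted difference as bars) by respiratory complex, in 4 panels for state and RNA fraction. Filled red points passed an adjusted p of 0.15; in activated cells 25 genes in each fraction are called below 0, and ex vivo Ndufb8 lies at 1.43 in cytosolic mRNA.

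Ex vivo, fewer of these genes were called between the subsets in the fit of all arrays. In cytosolic mRNA 8 of 81 were higher and 4 lower in TFoxp3+ cells (limma, adjusted p under 0.15), against 2.06% of all genes higher and 2.58% lower, and in polysome-associated mRNA 3 were higher and 5 lower, against 1.62% and 2.25%. After cyclic loess 9 were higher and 4 lower in polysome-associated mRNA. Their median differences, 0.12 and 0.05, were near those of all genes, 0.10 and 0.09. Among genes above the median mean intensity they were 0.11 and 0.05, against −0.07 and −0.10 for all such genes. In cytosolic mRNA 8.11% of these 74 were higher and 5.41% lower, against 3.19% and 4.77% of all such genes. In polysome-associated mRNA 2.70% were higher and 6.76% lower, against 2.21% and 3.42%. The cytosolic lower share and the polysome-associated higher share were thus near the background. Of the 12 cytosolic calls 1 held when each array was left out in turn, and of the 8 polysome-associated calls 0 did (limma, adjusted p under 0.15), although 23 genes had an unadjusted p under 0.05 in each fraction. Fitting only the 4 arrays compared gave 37 calls in cytosolic and 27 in polysome-associated mRNA, more than the same fit gave between the activated subsets. Array weights reversed the order of the counts in the same way. Whether fewer genes differed ex vivo thus depended on how the spread was estimated. Shares of all genes at the unadjusted cutoff, after cyclic loess, with only the 4 arrays and with array weights are not given here. Those counts therefore do not measure an excess of these genes. The 3′ to 5′ differences of the actin control and, by less, of the Gapdh control moved with the ex vivo subsets, and their part in these differences was not tested.

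Ndufb8, a supernumerary subunit of the complex I membrane arm, gave the cytosolic call that held. Cytosolic Ndufb8 read 11.85 and 11.75 in ex vivo TFoxp3+ cells, against 10.29 and 10.45 in ex vivo TFoxp3− cells, while its polysome-associated signal was 11.29 and 11.50, against 10.33 and 10.44. No arrays overlapped. The cytosolic difference was 1.43 ± 0.18 (SE, adjusted p = 0.00296), a 2.70-fold higher signal, and held with each array left out. The polysome-associated difference of 1.01 (adjusted p = 0.0216) ended without array 4 or 6 (adjusted p = 0.222 and 0.157). After activation the cytosolic Ndufb8 arrays of the subsets overlapped, with a difference of 0.07 (adjusted p = 0.829).

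Higher in ex vivo TFoxp3+ cells were also Ndufs8 and Uqcr10, and lower were the anchors of complex II, Atp5b and Ndufa9, each in both fractions. Cytosolic Sdhc read 7.56 and 7.90 in ex vivo TFoxp3+ cells, against 9.10 and 9.34 in ex vivo TFoxp3− cells, and cytosolic Sdhd read 8.64 and 7.94, against 9.54 and 9.61. The TFoxp3+ arrays were below the TFoxp3− arrays for both genes. The cytosolic differences were −1.48 (adjusted p = 0.0827) for Sdhc and −1.28 (adjusted p = 0.0838) for Sdhd, and each ended without any 1 of the 4 arrays compared, arrays 1, 3, 5 and 7 (adjusted p = 0.244 to 0.483 and 0.166 to 0.458). The polysome-associated differences were −1.66 (adjusted p = 0.0588) for Sdhc, which ended without array 2 or 4 (adjusted p = 0.346 and 0.46), and −1.19 (adjusted p = 0.117) for Sdhd, which ended without any 1 of 6 arrays (adjusted p = 0.185 to 0.72). Atp5b differed by −1.03 (adjusted p = 0.0572) in cytosolic mRNA, which ended without array 1, 3 or 5 (adjusted p = 0.189, 0.518 and 0.334), and by −1.37 (adjusted p = 0.0173) in polysome-associated mRNA, which ended without array 4 (adjusted p = 0.177). Cytosolic Ndufs8 differed by 0.94 (adjusted p = 0.0367, and 0.209 to 0.274 without any 1 of arrays 1, 3, 5 and 7) and cytosolic Uqcr10 by 1.44 (adjusted p = 0.0552, and 0.184 to 0.473 without any 1 of the same arrays). Their polysome-associated differences were 0.78 (adjusted p = 0.0814, and 0.221 to 0.529 without any 1 of arrays 2, 4, 6 and 8) and 1.24 (adjusted p = 0.102, and 0.157 to 0.414 without any 1 of 6 arrays). Ndufa9, an accessory subunit of complex I, differed by −0.71 in cytosolic mRNA (adjusted p = 0.0983, and 0.156 to 0.597 without any 1 of 6 arrays) and by −0.97 in polysome-associated mRNA (adjusted p = 0.033, and 0.158 to 0.288 without array 4, 6 or 8).

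Sdhc, Sdhd and Atp5b were the 3 genes called lower in TFoxp3+ cells in all 4 subset comparisons, and 0 genes were called higher in all 4. Polysome-associated Atp5b read 11.65 and 11.75 in activated TFoxp3+ cells, against 12.45 and 12.38 in activated TFoxp3− cells. The groups did not overlap, and the difference of −0.72 (adjusted p = 0.059) ended without array 10 (adjusted p = 0.164). Cyclic loess ended the Sdhd call in cytosolic mRNA of both states and in ex vivo polysome-associated mRNA (adjusted p = 0.156, 0.715 and 0.256).

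Polysome-associated and cytosolic mRNA were compared within each subset and state to see which transcripts carried ribosomes in other proportion. Most called genes were less abundant in the polysome-associated fraction of activated cells. In activated TFoxp3+ cells 12 of 81 were lower and 1 higher (limma, adjusted p under 0.05), against 2.36% of all genes lower and 2.31% higher. In activated TFoxp3− cells 8 were lower and 0 higher, with 21 at an unadjusted p under 0.05, against 1.52% of all genes lower and 2.36% higher. The median differences were −0.26 and −0.30, against −0.05 and −0.11 over all genes, and cyclic loess brought the TFoxp3− value to −0.08. The medians lay below those of all genes ex vivo as well. Among genes above the median mean intensity, the ex vivo medians were −0.23 in TFoxp3+ and −0.31 in TFoxp3− cells, against −0.02 and 0.0002 for all such genes. After activation they were −0.39 and −0.32, against 0.03 and −0.10. Ex vivo 0 genes were called in either subset, against 0.00607% of all genes lower and 0.0303% higher in TFoxp3+ cells and 0.0303% in each direction in TFoxp3− cells, while 16 and 22 had an unadjusted p under 0.05 and array weights called 5 and 21 of them. For the unadjusted counts, activated and ex vivo, and for array weights the share of all genes is not given here, so they do not measure an excess.

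Ndufv3, Ndufb9, Ndufaf8, Ndufa3 and Uqcr10 were lower in the polysome-associated fraction of both activated subsets. Ndufv3, a supernumerary subunit of the complex I matrix arm, read 11.06 and 11.04 in polysome-associated mRNA of activated TFoxp3+ cells, against 12.42 and 12.74 in cytosolic mRNA. In activated TFoxp3− cells it read 10.85 and 10.61, against 12.50 and 12.15. Polysome-associated arrays were all below cytosolic ones. The differences were −1.53 ± 0.23 (SE, adjusted p = 0.00656) and −1.59 ± 0.23 (adjusted p = 0.00606). Ndufaf8 read 9.12 and 9.73 in polysome-associated and 11.42 and 11.60 in cytosolic mRNA of activated TFoxp3− cells, a difference of −2.08 ± 0.26 (adjusted p = 0.00299). Ndufb9 differed by −1.13 (adjusted p = 0.0174) in TFoxp3+ and −1.48 (adjusted p = 0.00634) in TFoxp3− cells, and Uqcr10 by −1.90 (adjusted p = 0.0095) in TFoxp3+ cells. Among the genes called in both activated subsets, the calls that ended with 1 array left out were those of Uqcr10 in TFoxp3− cells (−1.37, adjusted p = 0.0676 to 0.197 without any 1 of 11 arrays), of Ndufaf8 in TFoxp3+ cells (−1.24, adjusted p = 0.0542 without array 13 and 0.0604 without array 16), and of Ndufa3 in TFoxp3+ cells (−1.03, adjusted p = 0.0616 without array 15 and 0.0598 without array 16) and TFoxp3− cells (−1.07, adjusted p = 0.0565 to 0.118 without array 9, 11 or 12). Over all fraction calls, 6 of 13 held with each array left out in activated TFoxp3+ cells and 3 of 8 in activated TFoxp3− cells.

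In activated TFoxp3+ cells Ndufa6, a supernumerary complex I subunit of the LYR family, and Atp5pb moved in opposite directions. The Ndufa6 arrays were 5.88 and 6.94 for polysome-associated mRNA, against 9.74 and 9.61 for cytosolic mRNA. Those of Atp5pb were 10.06 and 9.97 for polysome-associated mRNA, against 6.81 and 7.68 for cytosolic mRNA. Neither gene's fractions overlapped. The differences were −3.27 ± 0.32 (SE, adjusted p = 0.00181) and 2.77 ± 0.39 (adjusted p = 0.00437). Atp5e also had less in the polysome-associated fraction there, by −1.47 ± 0.21 (adjusted p = 0.00488). Its ex vivo differences were of like size but not called, −1.38 in TFoxp3+ (limma, adjusted p = 0.0725) and −1.44 in TFoxp3− cells (adjusted p = 0.0506). In activated TFoxp3− cells it was −0.73 (adjusted p = 0.0913). The calls of Ndufa6, Atp5pb and Atp5e in activated TFoxp3+ cells held with each array left out. Fitting only the 4 arrays compared left 0 of the 13 calls in TFoxp3+ and 0 of the 8 in TFoxp3− cells (lowest adjusted p over these calls 0.501 and 0.192), and array weights left 0 and 3.

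**Figure D4:**
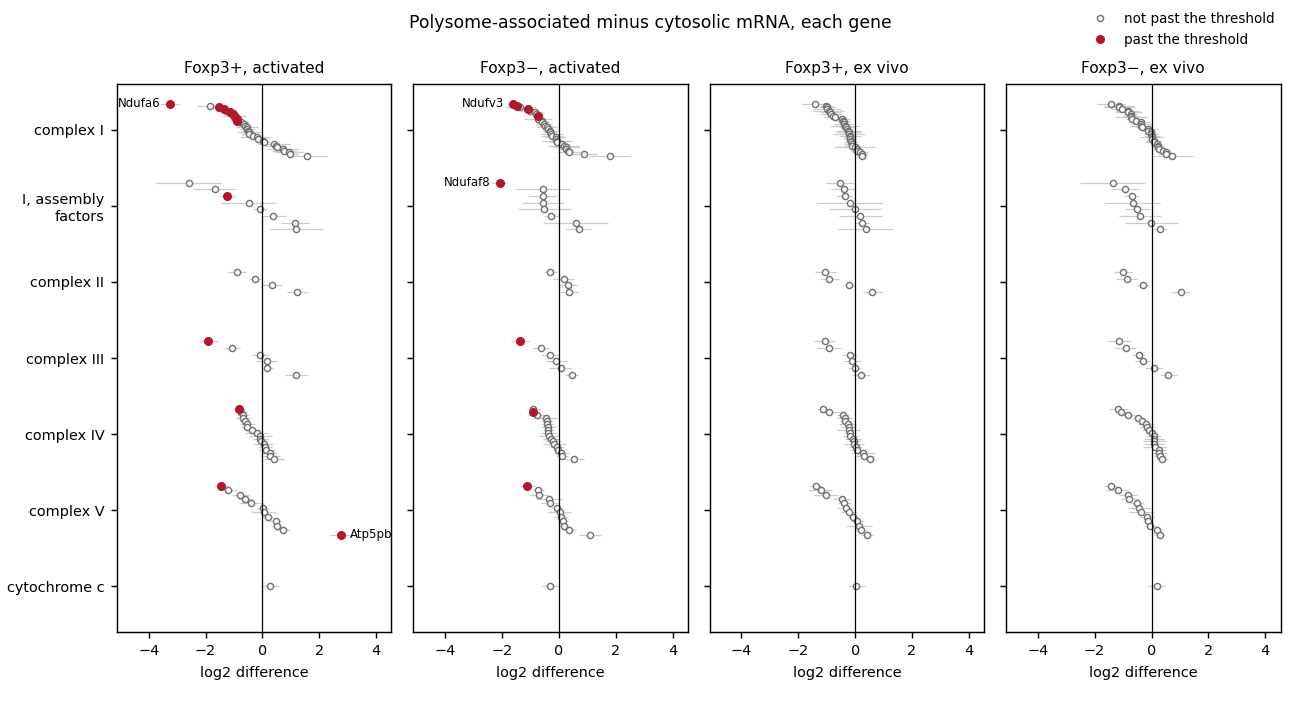
Polysome-associated minus cytosolic log2 difference of each oxidative phosphorylation gene (points, with the standard error of the fitted difference as bars) by respiratory complex, in 4 panels for subset and state. Filled red points passed an adjusted p of 0.05; they occur in the activated panels alone, with Ndufa6 at −3.27 and Atp5pb at 2.77 in TFoxp3+ cells.

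Differential translation asks whether the polysome-associated against cytosolic difference itself differed between the subsets. Activated cells had 1 of 81 genes higher and 2 lower in TFoxp3+ cells (limma, adjusted p under 0.15), against 3.83% of all genes higher and 3.65% lower, a share at or below the background, and cyclic loess gave 0 and 5. The share of all genes after cyclic loess is not given here. Ndufa6 had the smallest p, with a difference of −2.26 ± 0.46 (SE, adjusted p = 0.0337), with the TFoxp3+ values given above and TFoxp3− values of 7.96 and 7.98 in polysome-associated and 9.30 and 8.65 in cytosolic mRNA. The gap between the fractions was wider in TFoxp3+ cells. The call held with each array left out and ended with only the arrays compared (adjusted p = 0.414) or with array weights (adjusted p = 0.174). Ndufa5, a supernumerary complex I subunit, had −2.10 (adjusted p = 0.14) and Atp5pb had 1.68 (adjusted p = 0.15), calls that ended when any 1 of 14 and of 13 arrays was left out (adjusted p = 0.159 to 0.258 and 0.17 to 0.266). Ex vivo 0 genes were called at an adjusted p under 0.3, against 0% of all genes in each direction, and 0 of the 81 had an unadjusted p under 0.05. The smallest p-values there were those of Atp5o, Ndufb8 and Ndufs6, with differences of 0.58, −0.43 and −0.73.

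The change with activation was also compared between the subsets. In cytosolic mRNA 2 of 81 genes changed less upward or further downward in TFoxp3+ than in TFoxp3− cells and 0 the other way (limma, adjusted p under 0.05), against 1.21% and 0.856% of all genes, while 23 had an unadjusted p under 0.05. Ndufa12 differed by −3.63 ± 0.70 (SE, adjusted p = 0.0265), with TFoxp3− cytosolic arrays at 8.93 and 9.78 activated and 8.72 and 9.33 ex vivo, which overlap, and the fall in TFoxp3+ cells given above. Ndufb8 differed by −1.36 ± 0.25 (adjusted p = 0.0232), since it was lower after activation in TFoxp3+ cells, by −0.71, and higher in TFoxp3− cells, by 0.66. The Ndufa12 call ended without array 1, 3, 5, 7 or 11 (adjusted p = 0.0657 to 0.122) and the Ndufb8 call without array 1, 3, 5 or 7 (adjusted p = 0.0797 to 0.12). In polysome-associated mRNA 0 genes were called, against 1.15% of all genes higher and 1.43% lower, and 28 had an unadjusted p under 0.05. The share of all genes at that unadjusted cutoff is not given here, so neither this count nor the cytosolic 23 measures an excess. The smallest p-values there belonged to Ndufa9 (1.08, adjusted p = 0.059), Ndufv2 (−3.07, adjusted p = 0.0676) and Ndufaf3 (1.42, adjusted p = 0.0685).

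**Figure D5:**
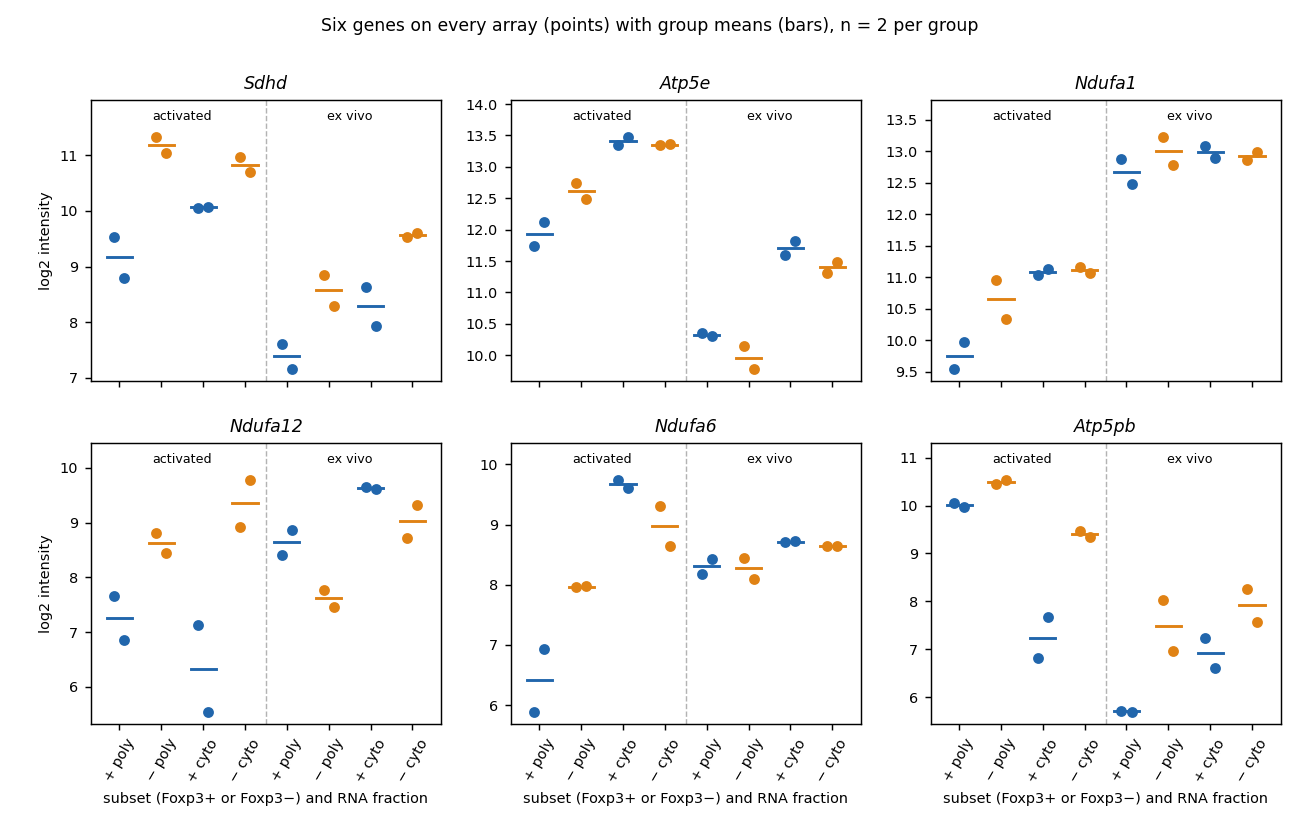
Log2 intensity of Sdhd, Atp5e, Ndufa1, Ndufa12, Ndufa6 and Atp5pb on each array (points) with the mean of the 2 arrays of each group (lines), for TFoxp3+ and TFoxp3− cells in both states and fractions. Atp5e is higher and Ndufa1 lower in each activated group than in the ex vivo group of the same subset and fraction, while Ndufa6 in activated TFoxp3+ polysome-associated mRNA, at 5.88 and 6.94, and Atp5pb in the matching cytosolic mRNA, at 6.81 and 7.68, stand below the other activated groups.

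Genes that serve the respiratory chain without matching the symbol rule were counted in the same fits between the activated subsets, where 12.2% of all genes were lower in cytosolic and 13.7% in polysome-associated mRNA, and 22.2% and 21.8% of genes above the median mean intensity. Of 37 measured assembly factors of the complexes, 12 were lower in activated TFoxp3+ than TFoxp3− cells in cytosolic mRNA and 15 in polysome-associated mRNA, and 0 were higher. Of 16 genes of the citrate cycle and pyruvate dehydrogenase, which feed NADH and succinate to the chain, 6 and 8 were lower and 1 and 1 higher. Of 18 regulators of mitochondrial gene expression, 5 were lower in cytosolic mRNA, namely Nrf1, Tfb1m, Polrmt, Yy1 and Mterf3, and 4 in polysome-associated mRNA, namely Gabpb1, Tfam, Mterf3 and Mterf4, and 0 were higher in either. Of 11 genes of coenzyme Q synthesis, 4 and 2 were lower and 0 and 1 higher. Genes of oxidative phosphorylation with an NRF1 core were lower in 10 of 19 cases in activated TFoxp3+ polysome-associated mRNA and those without it in 12 of 47, and in cytosolic mRNA in 4 of 19 and 15 of 47, and the difference between these counts was not tested. Cyc1, which encodes cytochrome c1 of complex III and is named for being the 1 measured subunit that the rule does not match, fell with activation, with differences of −2.53 in cytosolic and −2.25 in polysome-associated mRNA of TFoxp3+ cells and of −1.53 and −2.04 in TFoxp3− cells.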

How the data were processed

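CD4+ T cells of Foxp3-GFP mice were measured on 16 Affymetrix arrays, 2 in each of 8 groups of subset, state and RNA fraction. The authors used whole-transcriptome amplification and RMA with 1 probe set per Entrez gene, and the deposited log2 values were used unchanged. It is unknown here if RMA was run once over both states. Tests covered 16475 genes, without 64 control probe sets. With no detection values used, the number of arrays limits the precision: 8 residual degrees of freedom and a median residual SD of 0.349.

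Groups were taken from the labels, which number the arrays 1 to 16. All arrays were fitted together in R 4.3.3 with limma 3.58.1, with 1 mean per group, moderated two-sided tests and Benjamini-Hochberg adjustment over all genes. Thresholds were an adjusted p of 0.15 for subset comparisons and activated differential translation, 0.3 for ex vivo differential translation, and 0.05 otherwise. The fit was tested on simulated data. Errors are standard errors of the fitted differences.

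The genes and gene lists were chosen with earlier results of these data known. Named genes are the isoform families, Cycs and Sdha to Sdhd, up to 3 called genes with the smallest adjusted p for each comparison and direction, the highest and lowest mean of each complex, and the 3 smallest p-values for differential translation and for activation compared between subsets. Alternatives were fitting only the arrays compared, array weights, centring arrays on their medians, cyclic loess, genes above the median mean, and leaving out each array. Motifs were searched in RefSeq promoters (GRCm38.p6) with Python 3.11.15.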

Additional observations from a re-analysis of the deposited data

Results flagged for a closer look

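Between the subsets 5 differences of differences passed their thresholds, and these were looked at again. In the fit of all arrays activation changed cytosolic Ndufa12 and Ndufb8 differently in TFoxp3+ than in TFoxp3− cells, by −3.63 and −1.36. Neither call held with each array left out. Both ended with only the arrays compared (limma, adjusted p = 0.0784 and 0.0726) and after cyclic loess (adjusted p = 0.0589 and 0.107). These 2 differences cannot be told apart from the array series of the activated subsets. The difference of polysome-associated and cytosolic mRNA in activated cells was not the same in TFoxp3+ as in TFoxp3− cells for Atp5pb, by 1.68, Ndufa6, by −2.26, and Ndufa5, by −2.10. Of these 3 calls only that of Ndufa6 held with each array left out, and it ended with only the arrays compared. In activated TFoxp3+ cells the duplicates were 1.59 apart for cytosolic Ndufa12 and 1.90 apart for polysome-associated Ndufa5, and they were 1.06 apart for polysome-associated Ndufa6.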

How the results depend on the processing

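Counts of called genes depended on how the spread was estimated. They are given below without the share of all genes called under each setting, so they do not measure an excess of oxidative phosphorylation genes. With only the arrays compared, the calls were 37 and 27 ex vivo between subsets (cytosolic and polysome-associated mRNA), 4 and 4 in activated cells, 15 and 14 for activation of TFoxp3+ cells, 0 between fractions of activated TFoxp3+ and of activated TFoxp3− cells, 4 between fractions of ex vivo TFoxp3− cells, 0 for activated differential translation, and 0 and 1 for activation compared between subsets. With array weights they were 40 and 34 ex vivo, 10 and 10 activated, 5 and 21 between fractions ex vivo (TFoxp3+ and TFoxp3−), 0 and 3 between fractions of activated cells, 0 for activated differential translation, and 2 for activation between subsets in polysome-associated mRNA. After cyclic loess they were 13 ex vivo in polysome-associated mRNA, 3 and 1 between fractions of TFoxp3− cells activated and ex vivo, 5 for activated differential translation, and 0 and 1 for activation between subsets. Centring gave 5 between fractions of activated TFoxp3− cells, and genes above the median mean gave 19 between activated subsets in cytosolic mRNA, 5 between fractions of activated TFoxp3− cells and 1 for activation between subsets in cytosolic mRNA. The median difference of all genes, 0.13 and 0.20 between activated subsets (cytosolic and polysome-associated mRNA), was −0.01 and 0.08 after centring and 0.02 and 0.03 after cyclic loess, and cyclic loess brought it to 0.00 for activation in cytosolic mRNA of both subsets.

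With 1 array left out, the calls ranged from 1 to 16 and 0 to 12 ex vivo between subsets, 16 to 34 and 18 to 34 activated, 17 to 39 and 22 to 40 for activation of TFoxp3+ cells, 11 to 36 and 24 to 39 for activation of TFoxp3− cells, 10 to 16 and 3 to 13 between fractions of activated TFoxp3+ and TFoxp3− cells, 0 to 0 and 0 to 1 ex vivo, 1 to 8 and 0 to 0 for differential translation activated and ex vivo, and 0 to 7 and 0 to 7 for activation between subsets. The lowest counts came without array 1, 3 or 5 and without 4 ex vivo, without 9 or 13 and without 12 in activated cells (each cytosolic, then polysome-associated mRNA), without 5 and without 2 for activation of TFoxp3+ cells, without 3 for cytosolic activation of TFoxp3− cells, and without 11 between fractions of activated TFoxp3− cells. The cause was not tested. Values of genes named for the smallest p-values were followed over the alternatives, each in the comparison that named it. Of these values 1269 kept direction and side of the threshold, 123 lost the call, 12 gained it, and 0 reversed. Over all calls between activated subsets, 11 of 29 cytosolic and 10 of 30 polysome-associated ones held with each array left out. Ex vivo 1 of 12 and 0 of 8 did. No paired analysis was possible because no replicate number is shared between groups and no label says which arrays of both fractions came from 1 extract. Any such pairing is left out of the fraction and translation fits.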
